A study of Fragaria vesca with 18 samples.

Results

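Spliced exonic antisense lncRNAs are noncoding transcripts that lie opposite an exon of an annotated gene and are themselves assembled from more than 1 exon. They were taken here as the exonic antisense rows of the deposited count table whose locus kept at least 2 separate exon blocks after overlapping exons of the locus had been merged in the deposited exon file. Of 12662 exonic antisense rows, 322 (2.54%) met this definition, and the table holds 61763 rows in all. The RNA was that of untreated Hawaii4 plants of Fragaria vesca, the woodland strawberry. Fruit was taken at 3 stages, named here by the colour of the achenes, the small dry fruits on the strawberry surface: green achenes on immature fruit, yellow achenes on mature fruit, and brown achenes, also on mature fruit. Each stage has 3 rRNA-depleted libraries, made after ribosomal RNA had been removed, and 3 poly(A)-depleted libraries, made after RNA with a poly(A) tail had been removed. The 18 libraries thus fall into 6 groups of 3 biological replicates, each replicate combining fruit of several plants. The labels do not say whether libraries of both kinds with the same replicate number came from the same fruit.

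An antisense lncRNA is transcribed from the strand opposite a gene, so part of its sequence is complementary to that gene's transcript. Most plant messenger RNAs carry a poly(A) tail, whereas some long noncoding RNAs do not. An rRNA-depleted library can hold both kinds of RNA, and a poly(A)-depleted library is prepared to lose the tailed kind. Splicing removes introns and joins the exons on either side of them.

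The 322 loci were mostly simple. Of them 283 had 2 exon blocks, 29 had 3, 7 had 4, 1 had 6 and 2 had 7. Each held at least 1 assembled transcript that was itself made of 2 or more exons, and 92 held 2 or more transcripts. The exons of a locus added up to 255 to 21199 bases, with a median of 2108 against 1407 for the 12340 single-block exonic antisense loci. The 379 gaps between neighbouring blocks had a median of 241 bases and quartiles of 95 and 1099.5 bases. There were 140 gaps of 60 to 200 bases and 29 gaps over 10000. The shortest gap was 18 bases, and some rows rest on short gaps, for example 34 bases in XLOC_001974. Whether short gaps are introns was not tested. The plus strand held 169 of the loci and the minus strand 153.

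**Figure D1:**
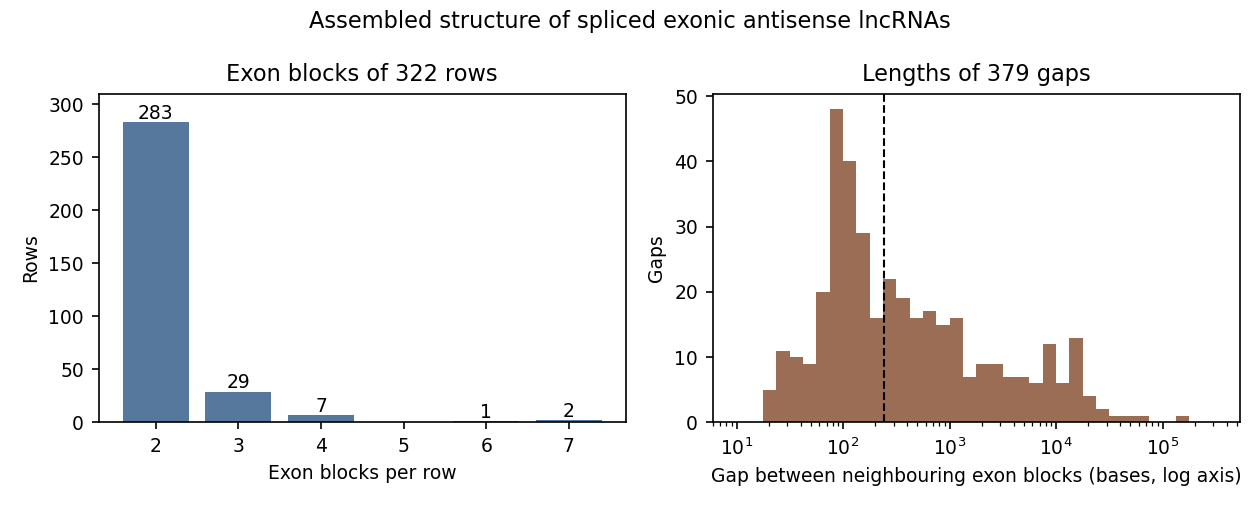
Left, number of rows (y axis) by number of exon blocks (x axis) for the 322 spliced exonic antisense rows; right, number of gaps (y axis) by gap length in bases (log x axis), with the median of 241 bases as a dashed line. Rows with 2 blocks made up 283 of 322, and the tallest bars of the gap histogram stand near 100 bases.

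Loci with the longest gaps mostly overlapped other loci. A gap over 10000 bases occurred in 28 loci, and the span of 26 of them, from first to last exon, overlapped at least 1 other assembled locus, against 60 of the 294 loci without such a gap. A long gap makes a long span, which has more room for other loci, and the groups were not matched for span. The extreme was exonAS.XLOC_004010 on chromosome 2 (6428446 to 6608733, plus strand), singled out here after its values were seen, which has a gap of 168076 bases and a span that 15 other loci overlapped. Positions are those of the deposited exon file, counted from 1, with a genome build not given in the sources used here.

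The authors gave 27 of the 322 loci a second row in the count table, 22 under the intergenic class and 5 under the intronic antisense class. The antisense row held more counts than the second row for 24 of them and fewer for 3. For XLOC_032919 the antisense row held 14805 counts over the 18 libraries and the intergenic row 18190. For XLOC_014952 the antisense row held 4 and the intergenic row 1681, and for XLOC_025005 they held 402 and 2047. For these loci the values below describe the antisense row only.

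Library totals were 47224793 to 76903885 counts in rRNA-depleted and 9488099 to 20433666 in poly(A)-depleted libraries. The mean count of a spliced antisense row over the 9 libraries of a kind had a median of 285 in rRNA-depleted and 118.0 in poly(A)-depleted libraries; single-block antisense rows had 232 and 110.3. Rows XLOC_018943 and XLOC_018229, described below, had rRNA-depleted yellow library 1 near the green libraries and yellow library 2 above the brown ones, and that second library had the lowest TMM factor of its kind, 0.597. The highest of that kind was 1.41, in brown library 3. In poly(A)-depleted libraries the lowest and highest factors were both at brown, 0.571 in library 1 and 1.48 in library 3. At least 10 counts in every library were held by 228 of the 322 rows, and 2 rows were at 0 throughout. No annotated gene ID matched the reference table (0 of 28588), so tissue markers were not used here and genes are given by ID. The libraries are stranded, per the labels, but no source used here gives the strand setting of the counting. Reads of a sense gene and of the row antisense to it therefore cannot be told apart.

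Together the spliced antisense rows took under 1% of the counts in every library. In rRNA-depleted libraries they took 0.502 ± 0.014% at green, 0.480 ± 0.030% at yellow and 0.489 ± 0.013% at brown (mean ± SD of the 3 libraries of a group, for shares and CPM). The poly(A)-depleted groups had 0.601 ± 0.017%, 0.651 ± 0.058% and 0.602 ± 0.087%. The lowest poly(A)-depleted library stood at 0.535% and the highest rRNA-depleted library at 0.517%, so the kinds of library did not overlap. Without the most abundant row, XLOC_008778, they did: the lowest poly(A)-depleted library was then at 0.466% and the highest rRNA-depleted one at 0.472%. Since the rows were chosen with earlier results known, the shares were not tested. Per kilobase of exon, on a CPM scale (counts scaled by library size and TMM factor) common to the 18 libraries, the median row had a mean level of 2.86. The median was 3.46 for single-block antisense rows and 0.543 for the 677 spliced intergenic rows.

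A single row made up much of the share. exonAS.XLOC_008778 (chromosome 3, 14093978 to 14108004, plus strand, 2 blocks, 8365 bases of exon) held 492869 counts, the most of the 322. Its level was 889, 802 and 999 CPM in the rRNA-depleted green libraries, 836, 466 and 440.0 in yellow and 425, 335 and 189.6 in brown, each on the scale of that kind of library. All green libraries lay above all brown ones, and yellow overlapped green. Its poly(A)-depleted levels were 1458, 1395 and 1879.7 CPM at green, 1090.4, 649.9 and 1258 at yellow and 999, 441 and 768 at brown. None of these stage differences passed edgeR's quasi-likelihood test. Brown versus green in rRNA-depleted libraries was nearest (log2 fold change ± standard error, here and below, -1.50 ± 0.50, adjusted p = 0.0567). The share of this row among the counts of the 322 was 18.2 to 20.9% in rRNA-depleted green libraries and 5.61 to 7.11% in brown ones.

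The other rows named for their level per kilobase were shorter. exonAS.XLOC_028201 (chromosome 6, 24700998 to 24710943, minus strand, a gap of 8495 bases) had 347, 277 and 277 CPM in rRNA-depleted green, 266, 121 and 109 in yellow and 164, 98 and 44.1 in brown libraries. Green lay above both later stages without overlap, but brown versus green missed the threshold (-1.56 ± 0.52, adjusted p = 0.0586). Between kinds of library this row was called lower with poly(A) depletion (log2 fold change -1.28). That call was lost with TMM factors from annotated genes alone (-0.82, edgeR adjusted p = 0.0670) and with library size alone (0.11, 0.778). exonAS.XLOC_025602 (chromosome 6, 30541865 to 30543948, plus strand) had 172, 181 and 144 CPM in rRNA-depleted green libraries and 168, 292 and 129 in brown, with overlap. Its poly(A)-depleted levels on the 18-library scale lay below its rRNA-depleted levels at every stage (log2 fold change between kinds -3.51 ± 0.37, adjusted p = 3.10e-07, and -2.02 with library size alone). exonAS.XLOC_025395 (chromosome 6, 28228712 to 28229496, plus strand) had 61.9, 46.2 and 54.1 CPM in rRNA-depleted green libraries, 19.0, 84.5 and 21.7 in yellow and 50.2, 49.8 and 39.2 in brown. Yellow libraries of that kind lay on both sides of green. Its poly(A)-depleted levels were 69.6, 61.2 and 71.2 CPM at green, 8.05, 18.1 and 6.29 at yellow and 60.4, 32.8 and 5.32 at brown. It fell from green to yellow there (-2.64 ± 0.74, adjusted p = 0.0493), a call that 8 of 15 alternatives lost (adjusted p 2.05e-04 to 0.170 over the 15). It was lost without any one of the green or yellow libraries or brown library 2 and with no low-count filter, and the fold change was -3.23 without yellow library 2. Between kinds of library the row was called lower with poly(A) depletion (-2.21, and -0.73 with library size alone). The fifth, exonAS.XLOC_021262, is described with the rises.

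Stage differences were tested within each kind of library, in an edgeR quasi-likelihood fit over all rows, with p-values adjusted by Benjamini-Hochberg over every row tested and a call at an adjusted p under 0.05. Of the 322 rows 312 passed the low-count filter in rRNA-depleted and 300 in poly(A)-depleted libraries. From green to yellow, 41 of 312 rows (13.1%) were called in rRNA-depleted libraries, 25 higher and 16 lower, beside 7.06% of all rows (2.56% higher and 4.49% lower) and 7.60% of single-block antisense rows. The median log2 fold change was -0.02 for the spliced antisense rows and 0.00 for all rows. Called rises ran from 1.33 to 6.57 on the log2 scale and called falls from -1.30 to -5.94. The count was 21 without green library 1, 21 without green library 2 and 18 without green library 3, and 33 to 55 when any one of the other 6 libraries was left out. Shares of all rows in these leave-outs are not given here, so the counts show only how far calls depend on a single library. In bulk RNA, fewer cells of a type and less RNA per cell cannot be told apart.

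From green to brown, 79 of 312 rows (25.3%) were called in rRNA-depleted libraries, 36 higher and 43 lower, beside 14.5% of all rows (4.35% higher and 10.1% lower) and 15.8% of single-block antisense rows. The median log2 fold change was -0.03 against 0.16 for all rows. Rises ran from 1.10 to 7.18 and falls from -1.21 to -7.46 on the log2 scale. The count was 49 without green library 1 and 45 without green library 3, and 54 to 102 without any other single library. Here too the shares of all rows are not given, and the counts show only the dependence on a single library. Both comparisons share the green libraries. Among rows with 3 or more blocks, 10 of 38 were called in each comparison.

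In poly(A)-depleted libraries 43 of 300 rows (14.3%) were called from green to yellow, 10 higher and 33 lower, beside 10.8% of all rows (2.95% higher and 7.85% lower); with TMM factors from annotated genes alone the split turned to 56 higher and 34 lower, with library size alone it was 13 and 16, and DESeq2 gave 34 and 69. The count was 12, 11 and 8 without green library 1, 2 or 3, 27, 6 and 8 without yellow library 1, 2 or 3, and 125 and 124 without brown library 1 or 3. From green to brown 24 of 300 (8.0%) were called, 6 higher and 18 lower, beside 5.66% of all rows (1.28% higher and 4.38% lower); the gene-only factors gave 27 higher and 16 lower, library size alone 12 and 13, and DESeq2 42 and 35. That count was 13, 13 and 10 without green library 1, 2 or 3, 11 without brown library 2, and 96 and 84 without brown library 1 or 3. Shares of all rows called in the alternatives of this paragraph are not given here. These counts therefore show only how far calls depend on scaling, tool or a single library. The scaling moved the median of all rows from 0.19 to 0.56 (gene-only factors) and 0.77 (library size) for yellow versus green, so the direction of small changes in these libraries depends on it.

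**Figure D2:**
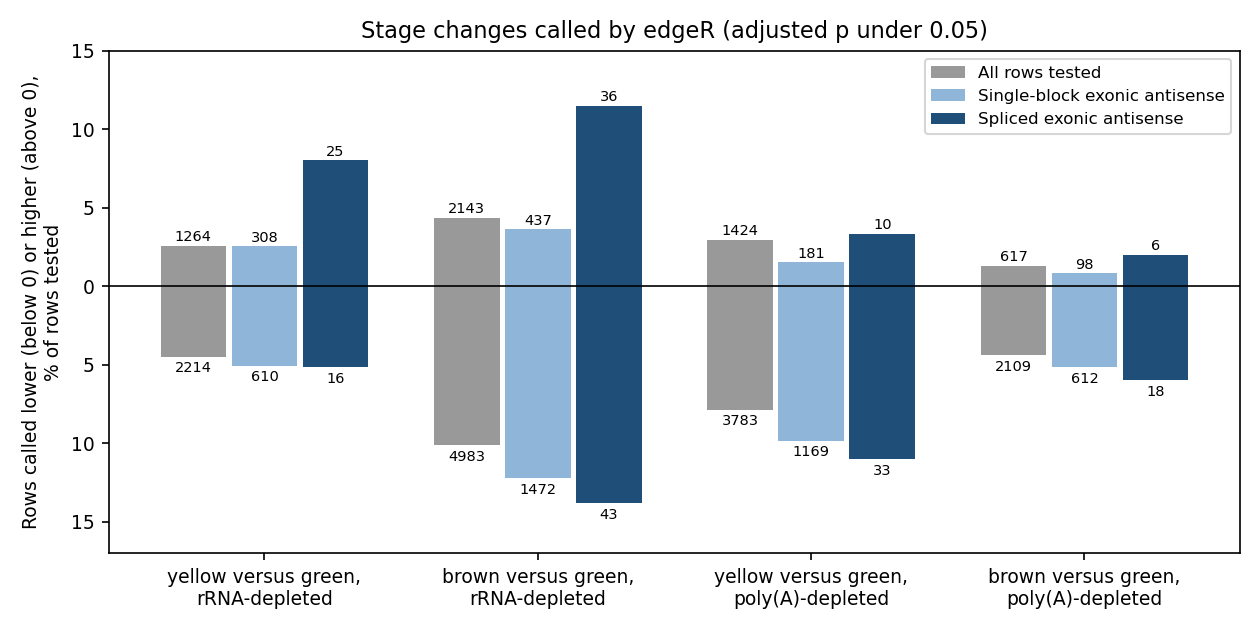
Share of tested rows called higher (above 0) or lower (below 0), in % (y axis), for the 4 comparisons with green fruit (x axis), for all rows, single-block antisense rows and spliced antisense rows; numbers at the bars are counts of rows. In rRNA-depleted libraries the spliced antisense bars reach 25 higher and 16 lower for yellow, and 36 higher and 43 lower for brown.

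No row was called between brown and yellow fruit. edgeR called 0 of 312 spliced antisense rows in rRNA-depleted libraries and 0 of 300 in poly(A)-depleted libraries, as it called 0.0% of all rows in both. At an unadjusted p under 0.05 it had 52 of 312 and 41 of 300 rows (16.7% and 13.7%), beside 13.2% and 9.2% of all rows, and DESeq2 called 16 and 1. Leaving out rRNA-depleted yellow library 2 gave 30 calls, and leaving out poly(A)-depleted brown library 3 gave 93. The shares of all rows called in these alternatives are not given here. The counts therefore show only how far calls depend on a single library or on the tool.

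The largest rise in yellow fruit with groups that did not overlap was that of exonAS.XLOC_021262 (chromosome 5, 4993465 to 4994048, minus strand), which has blocks of 318 and 44 bases and a gap of 222. Its level in rRNA-depleted libraries was 1.16, 0.644 and 0.210 CPM at green, 56.1, 71.2 and 51.8 at yellow and 24, 19.7 and 16.1 at brown. Yellow was highest in all 3 libraries, brown lay between, and no stage overlapped another. The log2 fold change was 6.47 ± 0.57, adjusted p = 2.07e-05 for yellow and 4.89 ± 0.53, adjusted p = 5.33e-05 for brown against green; without green library 1 they were 7.10 and 5.52. The poly(A)-depleted level was 0.888, 1.01 and 0.843 CPM at green, 24.5, 14.7 and 10.9 at yellow and 34.2, 16.6 and 3.42 at brown. There too it rose to yellow (4.18 ± 0.77, adjusted p = 0.0143) and to brown (4.29 ± 0.77, adjusted p = 0.0118), although the yellow call was lost without any one of the green libraries or yellow library 2 (adjusted p 0.0575 to 0.0799, and 1.36e-06 to 0.0799 over the 15 alternatives). The brown call was lost without any one of the green libraries (adjusted p 0.0568 to 0.0761, and 4.52e-07 to 0.0761 over the 15), and its value was 3.57 without brown library 1. The gene numbered near it whose counts followed it most closely was FvH4_5g08690 (Pearson r = 0.992 over 18 libraries), and the row held 0.0397 to 0.0844 times as many counts in the 14 libraries where both had at least 20.

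exonAS.XLOC_015848 (chromosome 4, 31031085 to 31032580, plus strand) has blocks of 224 and 1193 bases around a gap of 79. In rRNA-depleted libraries it stood at 0.827, 0.920 and 0.874 CPM at green, 3.24, 52 and 9.83 at yellow and 36.5, 26 and 8.89 at brown. The green libraries lay close together and below all others, while yellow spread widely and overlapped brown. It rose to yellow (4.63 ± 0.84, adjusted p = 0.00299) and to brown (4.76 ± 0.85, adjusted p = 0.00154); the first was 2.99 without yellow library 2 and 3.99 with library size alone. With poly(A) depletion it stood at 1.26, 1.22 and 0.920 CPM at green, 6.93, 25.5 and 7.37 at yellow and 107, 62.5 and 14.7 at brown, again with green below the rest. The rises were 3.54 ± 0.78, adjusted p = 0.0276 for yellow and 5.74 ± 0.84, adjusted p = 0.00460 for brown. The yellow call was lost without any one of the green libraries, yellow library 2 (log2 fold change 2.65) or yellow library 3, at an adjusted p of 0.0514 to 0.122 (1.21e-04 to 0.122 over the 15 alternatives). Its best correlated nearby gene reached r = 0.827.

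exonAS.XLOC_018943 (chromosome 5, 4415077 to 4417868, plus strand, blocks of 819 and 1900 bases, a gap of 73) had the largest rise in brown fruit in rRNA-depleted libraries. Its rRNA-depleted levels were 2.39, 1.58 and 2.40 CPM at green, 1.94, 570.0 and 30.9 at yellow and 381, 452 and 89.9 at brown. Every brown library lay above every green one, but yellow library 1 stood with green and yellow library 2 above brown. It rose to brown (7.18 ± 1.49, adjusted p = 0.00435) and to yellow (6.57 ± 1.45, adjusted p = 0.0108). The yellow value was 3.05 without yellow library 2, 7.16 without yellow library 3 and 5.77 with library size alone, and its call was lost without green library 3 (adjusted p 0.0509) and with a replicate block (4.94, adjusted p 0.0582), within a range of 1.59e-04 to 0.0582 over the 15 alternatives. The poly(A)-depleted levels were 11, 11.6 and 9.50 CPM at green, 11.6, 39.8 and 17.8 at yellow and 489, 161 and 23.5 at brown, where every brown library lay above every green one. There the rise to brown was 4.39 ± 0.98, adjusted p = 0.0319 and 3.25 without brown library 1. The call was lost without green library 1, 2 or 3 (adjusted p 0.121, 0.122 and 0.162) or brown library 2 (0.0724) and with a replicate block (0.0594), within a range of 1.10e-05 to 0.162 over the 15 alternatives. Its counts followed those of FvH4_5g07560 with r = 0.996, at 1.42 to 2.74 times that gene's counts.

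exonAS.XLOC_018229 (chromosome 4, 28279202 to 28288052, minus strand) is long, with blocks of 2530 and 6018 bases. In rRNA-depleted libraries it stood at 4.40, 4.40 and 4.32 CPM at green, 3.31, 347 and 40.2 at yellow and 177, 214 and 46.5 at brown. The same pair of yellow libraries stood apart in the same directions, and brown did not overlap green. It rose to brown (5.06 ± 1.15, adjusted p = 0.00814) and to yellow (4.89 ± 1.14, adjusted p = 0.0159). The yellow call was lost without any one of the green libraries or yellow library 2 (adjusted p 0.0562 to 0.0716) and with a replicate block (0.0546), within a range of 2.68e-04 to 0.0716 over the 15 alternatives. Its value was 2.41 without yellow library 2, 3.84 with the block and 4.16 with library size alone. With poly(A) depletion it was 29.7, 27.9 and 22.7 CPM at green and 81.5, 58.5 and 39.1 at brown, without overlap, and the difference was not called (1.16 ± 0.33, adjusted p = 0.0735).

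The steepest fall was that of exonAS.XLOC_016321 (chromosome 4, 3754574 to 3755542, minus strand, blocks of 391 and 177 bases, a gap of 401). It held 581, 1658 and 1396 counts in the rRNA-depleted green libraries, 43, 5 and 6 in yellow and 12, 4 and 1 in brown. These are 8.73, 19.1 and 22.6 CPM at green, 0.603, 0.111 and 0.0804 at yellow and 0.203, 0.0673 and 0.0150 at brown, with green above the rest and no overlap. It fell to yellow (-5.94 ± 0.80, adjusted p = 3.56e-04, and -7.46 without yellow library 1) and to brown (-7.46 ± 0.89, adjusted p = 8.69e-05, and -8.57 without brown library 1). The poly(A)-depleted libraries held 132, 224 and 322 counts at green, 2, 2 and 1 at yellow and 2, 3 and 8 at brown. It fell there as well, to yellow (-6.89 ± 0.54, adjusted p = 7.95e-04) and to brown (-5.73 ± 0.48, adjusted p = 9.22e-04). With so few counts after green, the size of these falls is loosely fixed, while the call held in all 15 alternatives of each of the 4 comparisons.

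exonAS.XLOC_013556 (chromosome 4, 1250838 to 1251619, plus strand, blocks of 405 and 272 bases, a gap of 105) fell in both kinds of library. Its rRNA-depleted levels were 21, 27.2 and 29.6 CPM at green, 8.56, 2.12 and 1.88 at yellow and 1.29, 0.269 and 1.43 at brown, in 3 groups without overlap. It fell to yellow (-2.63 ± 0.62, adjusted p = 0.0170) and to brown (-4.70 ± 0.69, adjusted p = 3.71e-04). The yellow call was lost without green library 3, without yellow library 2 or 3 and with library size alone (adjusted p 0.0553 to 0.0986, and 6.13e-04 to 0.0986 over the 15 alternatives), and the value was -3.70 without yellow library 1. In poly(A)-depleted libraries it stood at 32.9, 40.9 and 58.4 CPM at green, 4.31, 0.698 and 0.621 at yellow and 2.32, 0.172 and 2.07 at brown, with green alone high. The falls there were -4.60 ± 0.82, adjusted p = 0.0126 for yellow and -4.82 ± 0.82, adjusted p = 0.00944 for brown. The yellow value was -5.88 without yellow library 1, and the call was lost without green library 3 or yellow library 2 or 3 (adjusted p 0.0522 to 0.0836, and 1.36e-05 to 0.0836 over the 15 alternatives). FvH4_4g01350 was its best correlated nearby gene (r = 0.992), with the row at 0.365 to 0.881 of its counts in the 14 libraries where both had at least 20.

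exonAS.XLOC_005144 (chromosome 2, 21026723 to 21028853, plus strand, blocks of 272 and 1052 bases, 2 transcripts) had rRNA-depleted levels of 9.66, 14.3 and 20.4 CPM at green, 1.26, 0.936 and 0.482 at yellow and 0.186, 1.56 and 0.150 at brown. Green lay above both later stages, which overlapped each other. It fell to yellow (-4.05 ± 0.75, adjusted p = 0.00344) and to brown (-4.55 ± 0.77, adjusted p = 0.00111, and -6.34 without brown library 2). The poly(A)-depleted levels of this row were 10.7, 19.5 and 25.7 CPM at green, 2.06, 2.86 and 2.87 at yellow and 0.429, 0.258 and 5.16 at brown, and both differences just missed the threshold (-2.83 ± 0.80, adjusted p = 0.0506 and -3.16 ± 0.81, adjusted p = 0.0527). The nearby gene with the closest counts was FvH4_2g26160 (r = 0.965).

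**Figure D3:**
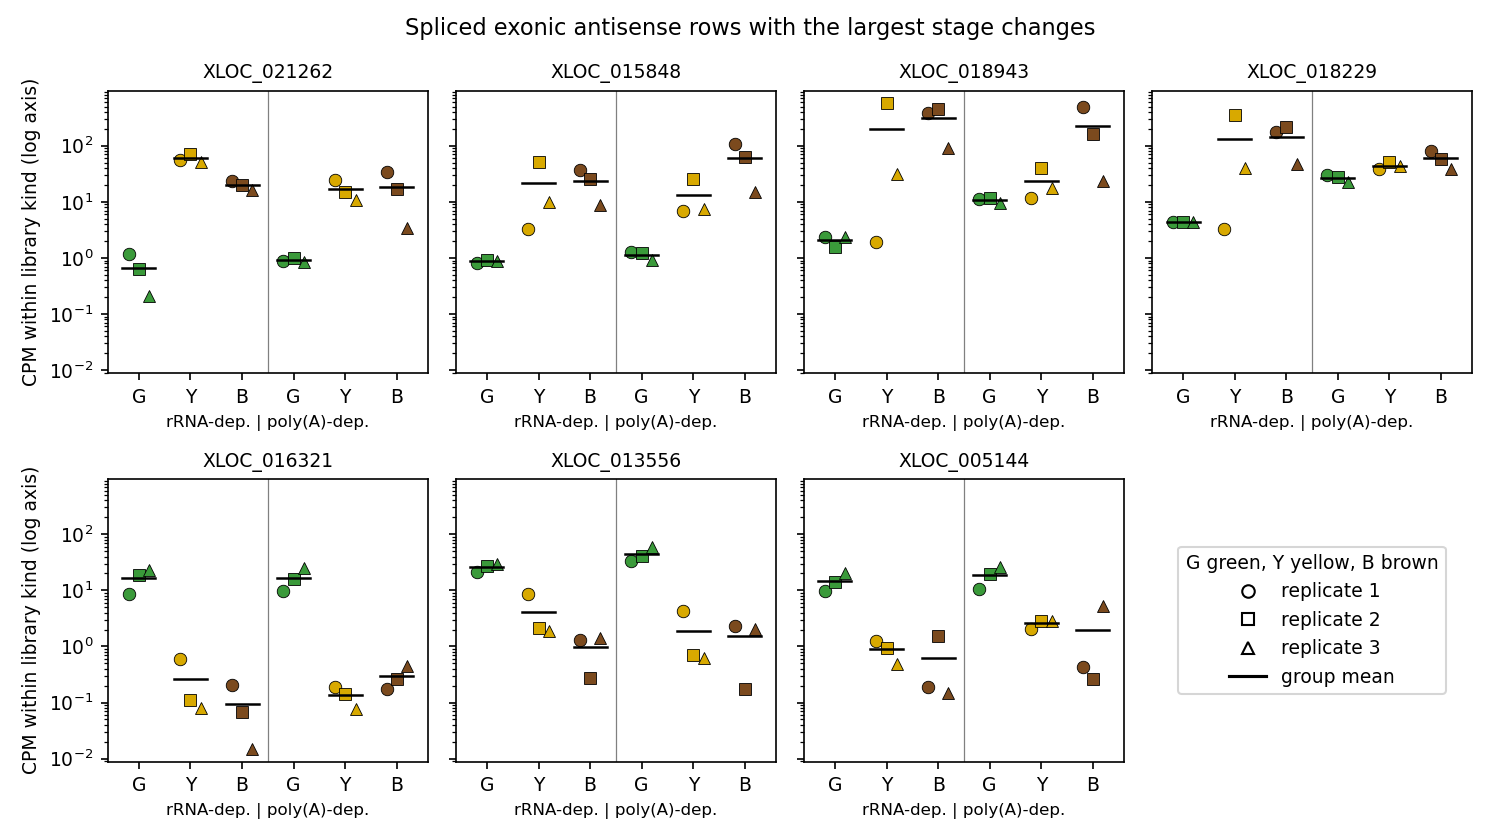
CPM within a kind of library (log y axis) for 7 named rows at green (G), yellow (Y) and brown (B), rRNA-depleted on the left and poly(A)-depleted on the right of each panel; symbols are libraries by replicate number and bars are group means. On the rRNA-depleted side, XLOC_021262 lies under 2 CPM in all green libraries and over 50 in all yellow ones, and XLOC_016321 lies over 8 in green and under 1 afterwards.

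The calls of the kinds are set side by side here. They come from different libraries, but not necessarily from different fruit: same-numbered libraries of the kinds deviated from their group means with a median correlation of 0.287, over 0.1 in 8 of 9 pairs. From green to yellow, 299 rows were tested in both; 41 were called in rRNA-depleted and 43 in poly(A)-depleted libraries, and 15 in both, all in the same direction, 12 lower and 3 higher. That is 36.6% of the rRNA-depleted and 34.9% of the poly(A)-depleted calls, beside 37.5% and 24.7% for all rows, where 1286 of 1287 shared calls had the same direction. From green to brown 78 and 24 of the 299 were called, and 23 in both, again all in the same direction, 17 lower and 6 higher. That is 29.5% and 95.8% of the calls, beside 31.4% and 81.1% for all rows, where all 2210 shared calls had the same direction. Across the 299 rows, which are not independent replicates, the log2 fold changes of the kinds had a Pearson r of 0.539 for yellow and 0.793 for brown, beside 0.393 and 0.756 over all rows. In at least 1 of the 6 stage comparisons 101 of 313 tested rows (32.3%) were called, beside 21.0% of all rows.

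**Figure D4:**
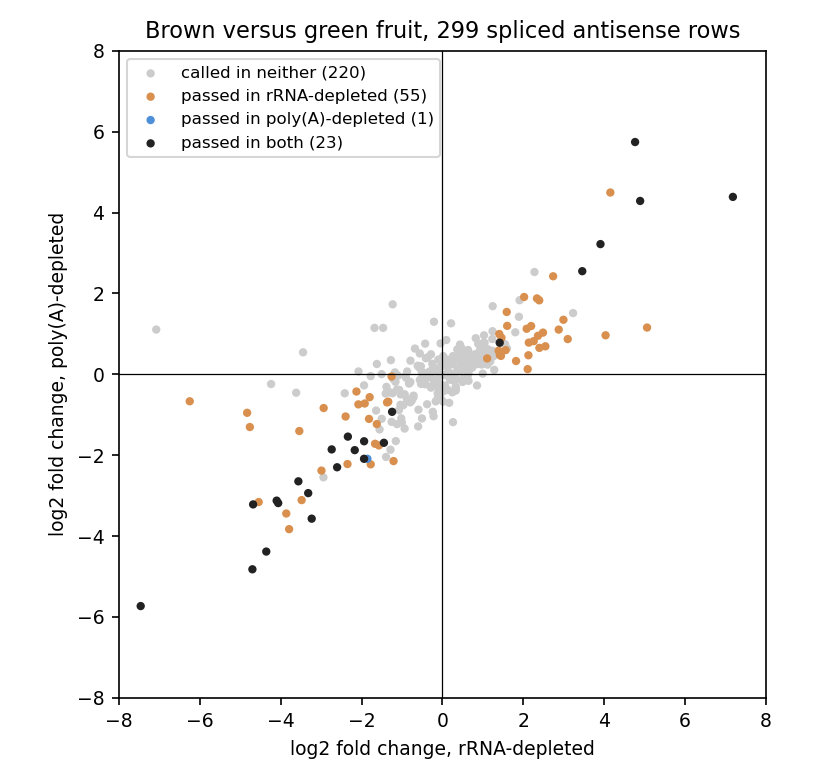
Log2 fold change of brown against green fruit in rRNA-depleted (x axis) and poly(A)-depleted libraries (y axis) for 299 spliced antisense rows, 1 point per row, coloured by which test passed. The 23 rows that passed in both lie in the lower left (17) and the upper right (6).

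The kinds of library were compared in a fit to all 18 libraries, averaged over the stages. Of 313 rows tested, 226 (72.2%) were called, 82 higher and 144 lower with poly(A) depletion, beside 77.2% of all rows (43.0% higher and 34.1% lower); TMM factors from genes alone turned this to 116 higher and 111 lower, and library size alone to 181 and 35. The median log2 fold change was -0.49 against 0.40 for all rows, and the all-row median became 0.84 and 1.88 under those scalings. The directions below are therefore relative to the TMM scale. Shares of all rows called under the other scalings are not given here, so those splits show no trait of the spliced antisense rows. Single-block antisense rows were called at 77.2%, with a median of -0.42, and spliced intergenic rows at 68.8%, with a median of 1.03. Of the 226 rows, 152 (67.3%) were called in no stage comparison, beside 80.1% of all rows called between kinds. Within every stage the libraries of the kinds did not overlap for 27 rows (8.63%) that were higher and 52 (16.6%) that were lower in poly(A)-depleted libraries, all of them called. Over all rows these shares were 12.3% and 13.4%.

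Rows named for the largest differences kept their direction under every scaling tried. exonAS.XLOC_002777 (chromosome 1, 13360537 to 13362092, minus strand, blocks of 298 and 977 bases) had 98.7, 77.6 and 53.4 CPM on the 18-library scale in rRNA-depleted green, 56.6, 117 and 60.9 in yellow and 86.6, 85.4 and 14.1 in brown libraries. In poly(A)-depleted libraries it had 13.3, 9.20 and 8.95 CPM at green, 2.57, 1.25 and 1.09 at yellow and 6.28, 4.56 and 1.77 at brown, below the other kind at every stage. The difference was -4.11 ± 0.37, adjusted p = 7.10e-08, and -2.58 with library size alone. Within poly(A)-depleted libraries it also fell from green to yellow (-2.65 ± 0.47, adjusted p = 0.0129), a call lost without green library 1 or yellow library 2 or 3 (adjusted p 0.0527 to 0.0853, and 1.87e-05 to 0.0853 over 15 alternatives).

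exonAS.XLOC_010169 (chromosome 3, 32910299 to 32916063, plus strand, 3 blocks of 2369, 56 and 248 bases) had 29.9, 27.6 and 26.1 CPM on the 18-library scale in rRNA-depleted green, 27.6, 98.2 and 38.9 in yellow and 42.5, 52.6 and 11.9 in brown libraries. Its poly(A)-depleted levels were 3.62, 2.30 and 2.42 CPM at green, 2.35, 1.41 and 0.694 at yellow and 3.43, 3.58 and 1.15 at brown, below the other kind at every stage. The difference was -4.09 ± 0.35, adjusted p = 6.09e-08, and -2.54 with library size alone. Its blocks come from 3 transcripts of at most 2 blocks each, and the locus has a second, intergenic row with 73 counts beside its 13075.

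Higher in poly(A)-depleted libraries was exonAS.XLOC_009873 (chromosome 3, 28861509 to 28865504, plus strand, blocks of 2218 and 577 bases). It held 47, 63 and 37 counts in poly(A)-depleted green, 33, 69 and 78 in yellow and 14, 20 and 88 in brown libraries, and in the deeper rRNA-depleted libraries 6, 27 and 24 at green, 27, 0 and 55 at yellow and 6, 13 and 0 at brown. That is 2.20 ± 0.553 CPM against 0.385 ± 0.220 at green, with no overlap at any stage. The difference was 2.47 ± 0.59, adjusted p = 9.31e-04, and 4.08 with library size alone.

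The other row of this kind, exonAS.XLOC_008244 (chromosome 3, 6346407 to 6354895, plus strand), has blocks of 985 and 338 bases that are 7166 bases apart. It held 97, 83 and 87 counts in poly(A)-depleted green, 56, 131 and 111 in yellow and 41, 74 and 170 in brown libraries, and in rRNA-depleted libraries 40, 34 and 75 at green, 61, 0 and 53 at yellow and 9, 14 and 41 at brown. Its level at green was 4.01 ± 0.362 CPM against 1.07 ± 0.583, and the kinds did not overlap at any stage. The difference was 2.28 ± 0.44, adjusted p = 1.24e-04, and 3.70 with library size alone.

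**Figure D5:**
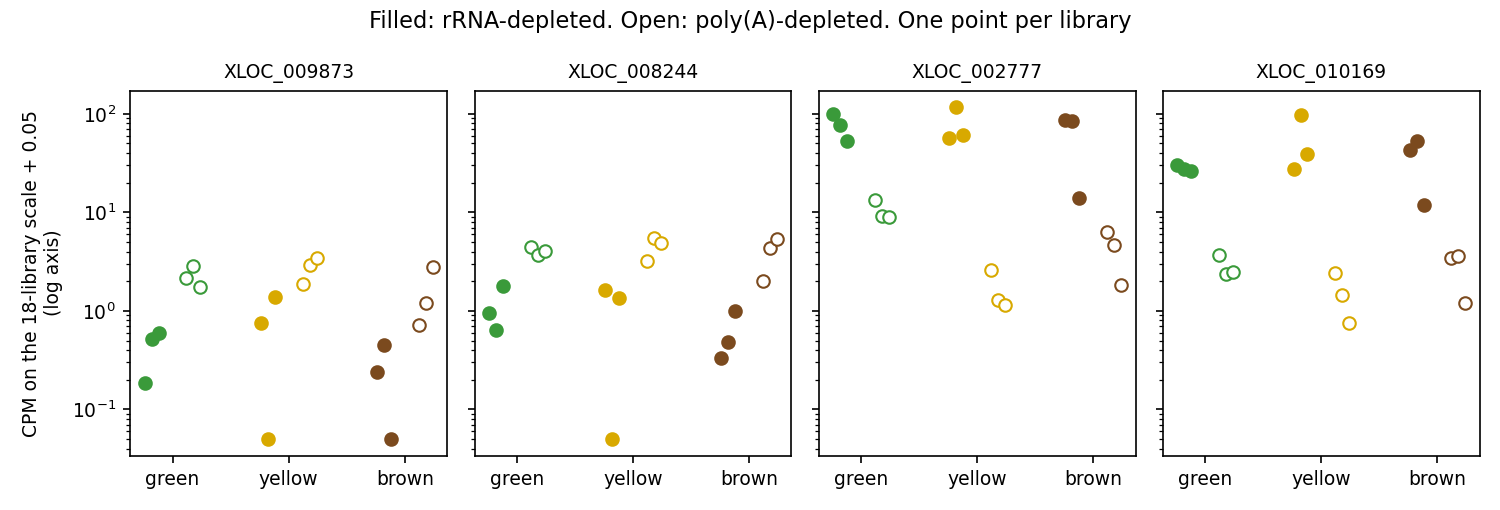
CPM on the 18-library scale plus 0.05 (log y axis) by stage (x axis) for the 4 rows named for the difference between kinds of library; filled points are rRNA-depleted and open points poly(A)-depleted libraries, 1 point per library. XLOC_009873 and XLOC_008244 lie higher in the open points and XLOC_002777 and XLOC_010169 lower, without overlap within a stage.

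Whether stage changes differed between the kinds was tested as an interaction in the same fit. edgeR called 0 of 313 spliced antisense rows, beside 0.0845% of all rows, with 69 rows (22.0%) at an unadjusted p under 0.05, beside 18.9% of all rows. With a block for each pair of same-numbered libraries of both kinds, edgeR called 67 rows (21.4%), beside 17.4% of all rows. The 0 therefore depends on leaving out a pairing that the labels do not state. DESeq2 without the block called 11. Leaving out poly(A)-depleted brown library 3 gave 35 calls, poly(A)-depleted brown library 1 gave 9, rRNA-depleted yellow library 1 gave 2 and rRNA-depleted brown library 3 gave 1. For DESeq2 and these leave-outs the shares of all rows are not given here, so the counts show no trait of the spliced antisense rows.

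Rows with the most blocks were of modest level. exonAS.XLOC_007887 (chromosome 3, 1764793 to 1780785, plus strand) has 7 blocks, all in 1 transcript, with gaps of 50 to 3363 bases. It had 2.52, 2.55 and 2.56 CPM in rRNA-depleted green, 2.09, 0.646 and 1.82 in yellow and 1.27, 1.51 and 1.52 in brown libraries. Green lay above both later stages, but neither difference passed (-0.74 ± 0.48, adjusted p = 0.563 and -0.83 ± 0.49, adjusted p = 0.271). It was higher in poly(A)-depleted libraries (0.96 ± 0.24, adjusted p = 0.00116, and 2.48 with library size alone). On the 18-library scale the kinds overlapped at brown but not at green or yellow.

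exonAS.XLOC_021004 (chromosome 5, 1012493 to 1017050, minus strand) also has 7 blocks, of 111, 85, 85, 85, 81, 125 and 3059 bases. Its block starts are 237, 211, 211, 211, 152 and 477 bases apart, and it was the only one of 39 rows with 3 or more blocks with at least 2 successive spacings equal within 3 bases. Its level was 3.14, 7.16 and 5.44 CPM in rRNA-depleted green, 5.28, 21.6 and 10.5 in yellow and 28.5, 36.7 and 15.7 in brown libraries. Brown lay above green without overlap and had risen (2.36 ± 0.51, adjusted p = 0.00594). In poly(A)-depleted libraries it had 5.77, 8.54 and 10.3 CPM at green and 21.5, 15.7 and 10.4 at brown, also without overlap, and the difference was not called (0.95 ± 0.30, adjusted p = 0.0952). Between kinds of library this row was called lower in poly(A)-depleted ones (log2 fold change -1.72). That call was lost with library size alone (-0.16, edgeR adjusted p = 0.511). Reads from near-identical repeats could be placed in more than 1 block; no sequence was examined here.

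exonAS.XLOC_007526 (chromosome 2, 25555447 to 25559805, minus strand) has 6 blocks with gaps of 18 to 401 bases. It held 34, 39 and 30 counts in rRNA-depleted green, 33, 2 and 44 in yellow and 20, 44 and 78 in brown libraries, which overlapped, and no stage difference was called. Between kinds of library it was higher in poly(A)-depleted ones (1.07 ± 0.44, adjusted p = 0.0331), and by 2.58 with library size alone. That call was lost without poly(A)-depleted brown library 3 (0.67 on the log2 scale) or rRNA-depleted green library 2 or 3 or brown library 1, and with a replicate block, at an adjusted p of 0.0504 to 0.135 (9.54e-04 to 0.135 over the 24 alternatives).

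Because the antisense rows may hold reads of the gene opposite them, each was set beside genes numbered near its place. The deposited files give positions for assembled loci but not for genes, so the place of a row among the numbered genes was interpolated from pairs of a row and a gene whose counts were almost the same. Of 290 rows with a mean of at least 20 counts, 129 (44.5%) had a gene within 30 numbers whose scaled counts correlated with theirs at r over 0.95. In windows shifted by 300 gene numbers the share was 16.9% and 20.2% of the rows that could be placed. It was 50.3% for single-block antisense rows in their own window. The rows of the placing pairs were all single-block and were chosen for a near-equal gene, so part of the 50.3% was fixed by the placing. That share therefore cannot be set against the 44.5% of spliced rows, of which none served in such a pair. Such a gene need not overlap the row, and whether shared reads are the source of the likeness was not tested.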

How the data were processed

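Counts were measured in 18 libraries of strawberry fruit. The authors deposited 1 table of raw counts per annotated gene or lncRNA locus, whole numbers without normalization, and the exons of assembled transcripts, whose source column names Cufflinks, per the file headers and values. STAR 2.5.4b, TopHat2 2.1.2 and Trim Galore 0.4.2 are listed, with no role, per the submitters' processing notes. No source used here gives the counting program, its strand setting or the genome build. In R 4.3.3, edgeR 4.0.16 with limma 3.58.1 was run with TMM factors, filterByExpr, a quasi-likelihood F test and Benjamini-Hochberg adjustment over all rows, in separate fits to the 9 libraries of each kind (49283 and 48201 rows) and 1 fit to all 18 (52101 rows). Standard errors were derived from the F statistic. P-values set a difference against the spread between replicate libraries, which combine fruit of several plants. The groups of a fit share a single estimate of that spread per row, so brown libraries also enter the test of yellow against green. DESeq2 1.42.0, other scalings, no low-count filter, a replicate block, other definitions of the rows and leaving out each library were the alternatives. The fit was also run on simulated counts with known changes and the same spread for every row. That spread was not matched to these libraries, so the run says nothing on the calls here.

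The rows, lists and tests were chosen with earlier results of these data known. Named rows are, per comparison, the 2 largest rises and 2 largest falls among called rows without overlap between groups and with at least 2 CPM in the higher group, plus the 3 rows with the most blocks and the 5 with the highest level per kilobase. Nearby genes are described, not tested.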

Additional observations from a re-analysis of the deposited data

How the results depend on the processing

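All 20 results for which rows were named by stage or kind kept their direction in all 336 alternative values, and 17 of these, in 4 results named above, no longer passed the threshold. These results were chosen for groups without overlap, so leaving out a library could hardly reverse a direction. The kept direction is therefore no separate support. Calls outside the 20 are not part of these counts. Those described above are given with their losses, but calls between kinds are not described for every named row. Leaving out 1 library gave 18 to 55 called rows for yellow versus green and 45 to 102 for brown versus green in rRNA-depleted libraries, 6 to 125 and 10 to 96 in poly(A)-depleted libraries, 0 to 30 (rRNA-depleted) and 0 to 93 (poly(A)-depleted) for brown versus yellow, 208 to 237 between kinds and 0 to 35 for the interaction. DESeq2 called 16 and 1 rows for brown versus yellow, 103 and 77 for yellow and brown versus green in poly(A)-depleted libraries, and 11 for the interaction. TMM factors from genes alone gave 90 and 43 for the poly(A)-depleted comparisons with green. The shares of all rows called are not given for these alternatives. Restricting to 3 or more blocks left 10, 10, 5, 2 and 32 calls (yellow and brown versus green in rRNA-depleted, the same in poly(A)-depleted, and between kinds), because fewer rows are tested. Without XLOC_008778 the shares were 0.404, 0.424 and 0.458% in rRNA-depleted green, yellow and brown and 0.469, 0.526 and 0.531% in poly(A)-depleted ones. Shifted windows gave 44 and 53 rows with a nearby gene over 0.95, against 129. Other causes were not tested. Shares without 1 library stayed within 0.463 to 0.507% in rRNA-depleted and 0.554 to 0.672% in poly(A)-depleted groups.

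Equal replicate numbers were not treated as pairs. Deviations of same-numbered libraries of both kinds at a stage correlated at -0.114 to 0.616 (8 of 9 over 0.1). Those of same-numbered libraries of different stages of a kind correlated at -0.196 to 0.613, with a median of 0.026 and 8 of 18 over 0.1. With different numbers, 9 of 36 such pairs were over 0.1. With a replicate block the interaction called 67 rows, and no other count of calls moved by over 1.5 times. XLOC_018943 then lost its poly(A)-depleted brown call (edgeR adjusted p = 0.0594), and XLOC_018943 and XLOC_018229 their rRNA-depleted yellow calls (0.0582 and 0.0546). Calls between kinds were lost for XLOC_007526 (0.0609) and XLOC_018229 (0.0707, log2 fold change -0.93 against -1.60 without the block). Depth limits rows with few counts, such as XLOC_016321 after green.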
